A study of Homo sapiens with 30 samples.

Results

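The genes described here are 10 genes of the NF-kB pathway, taken by name: TNFAIP3, NFKBIA, NFKBIE, NFKB1, NFKB2, RELB, BIRC3, ICAM1, LTB and TRAF3. Every probe set that the platform annotation gives to one of these symbols alone was read in all 10 lines of the study. This gave 17 probe sets for 9 of the 10 genes, out of 19775 genes that could be named. No probe set was listed under BIRC3 in the annotation used, so this gene is not analysed here. All 9 genes passed the filter on dim probe sets and were among the 13137 genes tested.

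RNA came from KMS11, a human myeloma cell line in which a chromosomal translocation places NSD2 (also called MMSET) under immunoglobulin enhancers. NSD2 is a histone H3 lysine methyltransferase. The 30 Affymetrix arrays fell into 10 lines with 3 cultures each, described in the series design as biological triplicates. PAR is KMS11 itself and TKO is the NSD2 knockout. The labels name the other lines by their transgene, and the lines are known as knockout cells that received a form of NSD2: wild-type NSD2 (WT), a catalytic dead mutant (CDM), the H762Y mutation in a PHD finger (H762Y), the fragments 526-1240 and 526-1365, and the short MMSET I isoform without the SET domain (MMSET1). WT+MMSET1 and CDM+MMSET1 carry that isoform beside WT or CDM. Every transgene or pair of transgenes was read in 1 line, no line with an empty vector was among them, and what NSD2 loss did and how the TKO cells differ otherwise cannot be told apart. Neither the promoter of the transgenes nor their protein levels were used here. In bulk RNA, fewer cells that express a gene and less RNA per cell cannot be told apart.

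NF-kB is a family of dimeric transcription factors. In resting cells IkB proteins such as NFKBIA and NFKBIE hold the dimers in the cytoplasm, and IKK kinases release them by marking IkB for destruction. Another route, called noncanonical, runs through the kinase MAP3K14, which TRAF3 keeps low, and through the processing of NFKB2 to a partner of RELB. Many targets feed back on the pathway. NFKBIA, NFKBIE and TNFAIP3 are inhibitors that NF-kB itself induces, so their RNA is commonly read as a sign of pathway activity. Multiple myeloma often carries lesions of this pathway, TRAF3 loss among them.

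The promoters of 8 of the 10 genes were matched in a RefSeq table (build GRCh38.p14, 250 bases before to 50 after each start). The 4 printed here belong to the genes whose RNA differed most between lines and to NFKBIA, the textbook target, so that the letters can be read beside the values. Each is the 250 bases before the start, 5′ to 3′ on the strand of the gene, with a match to the kB consensus or to GGAANTTCC in capitals on either strand.
TNFAIP3, chr6:137867009-137867258, plus strand: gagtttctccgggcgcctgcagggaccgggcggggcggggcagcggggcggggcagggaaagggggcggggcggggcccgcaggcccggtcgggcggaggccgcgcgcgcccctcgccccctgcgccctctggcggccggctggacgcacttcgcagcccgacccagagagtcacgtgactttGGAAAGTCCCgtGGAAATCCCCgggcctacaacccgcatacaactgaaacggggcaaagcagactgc
ICAM1, chr19:10270870-10271119, plus strand: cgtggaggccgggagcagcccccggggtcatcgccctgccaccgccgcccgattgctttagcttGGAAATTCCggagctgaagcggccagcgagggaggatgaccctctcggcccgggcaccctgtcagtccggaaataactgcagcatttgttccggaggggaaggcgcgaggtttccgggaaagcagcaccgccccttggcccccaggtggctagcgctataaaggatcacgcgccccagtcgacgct
LTB, chr6:31582426-31582675, minus strand: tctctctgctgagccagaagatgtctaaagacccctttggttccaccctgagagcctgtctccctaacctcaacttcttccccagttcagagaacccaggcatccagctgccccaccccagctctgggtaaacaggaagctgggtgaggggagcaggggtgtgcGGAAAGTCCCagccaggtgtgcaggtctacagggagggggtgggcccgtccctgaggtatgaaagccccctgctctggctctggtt
NFKBIA, chr14:35404750-35404999, minus strand: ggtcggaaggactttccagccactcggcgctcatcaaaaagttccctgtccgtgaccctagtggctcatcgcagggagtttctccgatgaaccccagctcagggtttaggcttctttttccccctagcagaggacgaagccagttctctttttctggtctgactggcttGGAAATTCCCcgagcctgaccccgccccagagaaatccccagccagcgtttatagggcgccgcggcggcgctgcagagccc

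TNFAIP3 had a pair of kB consensus matches, GGAAAGTCCC at position -67 and GGAAATCCCC at position -55 from the start, both as read on the printed strand and matched on the other. LTB had the same letters as the first of these, GGAAAGTCCC, at position -86. ICAM1 had no match to the kB consensus in its window and held the shorter GGAAATTCC at position -186. In NFKBIA the GGAANTTCC match lay inside the kB consensus match GGAAATTCCC at position -81. Over both strands of all 27305 genes in the table, 13.3% had the kB consensus and 1.16% had GGAANTTCC in the whole window of the table, against 7 and 3 of the 8 genes here. A match describes the letters and no binding was measured.

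All values were the authors' log2 RMA values, in which a difference of 1 is a doubling. A line is given as mean ± SD of its 3 arrays, and so few arrays limit the precision. The median of an array was 4.986 to 5.039. On NSD2 itself, 3 of 6 probe sets were lower in TKO than in PAR by 0.43 to 0.98, and every TKO array still read at least 7.34 on all 6. No source used here gives the deleted stretch, so these probe sets do not test the label. Whether TKO cells still held intact NSD2 RNA was not tested. Of 11 plasma cell markers 9 were above 5.013, the median over the whole table, on 3 or more arrays, and their list mean lay between 9.05 and 9.44 on every array.

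One array stood apart. H762Y replicate 1 correlated across genes at 0.958 and 0.961 with the other H762Y arrays, while the value between those 2 was 0.998. The array most like it was replicate 1 of WT+MMSET1 (0.981). Tests of the 9 genes that use H762Y are therefore also given without it, and where it decides a level the 3 arrays are given. The list mean of 5 epithelial markers, 3 of them above the median, was 5.74 to 5.93 on PAR, 5.55 to 5.71 on WT, 5.11 to 5.39 on CDM and 5.01 to 5.14 on TKO arrays. Among those 5, EPCAM line means ran from 6.71 to 9.56, while KRT19 and CDH1 were dim on every array. In the T cell list 4 of 7 markers were above the median. Its mean was 4.39 to 4.54 on PAR, 4.53 to 4.71 on WT, 4.68 to 4.76 on TKO and 4.90 to 5.03 on CDM arrays. CD3D and CD5 were above the median on all 30 arrays, while CD3G and CD2 were dim on all. The erythroid list (3 of 3 measured markers above the median) was 5.70 to 6.19 on PAR, 6.16 to 6.27 on TKO, 5.83 to 5.95 on WT and 6.25 to 6.40 on CDM arrays. The monocyte list (1 of 5 above the median) and the fibroblast list (3 of 6) stayed between 4.40 and 4.62 and between 4.69 and 5.06 over all arrays. The B cell list (5 of 6) stayed between 5.05 and 5.45. Of its markers, PAX5, CD22, CD79A and CD79B were above the median on all 30 arrays and BLK on 3, while MS4A1 was dim on every array. The part of these lists in the results below was not tested.

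**Figure D1:**
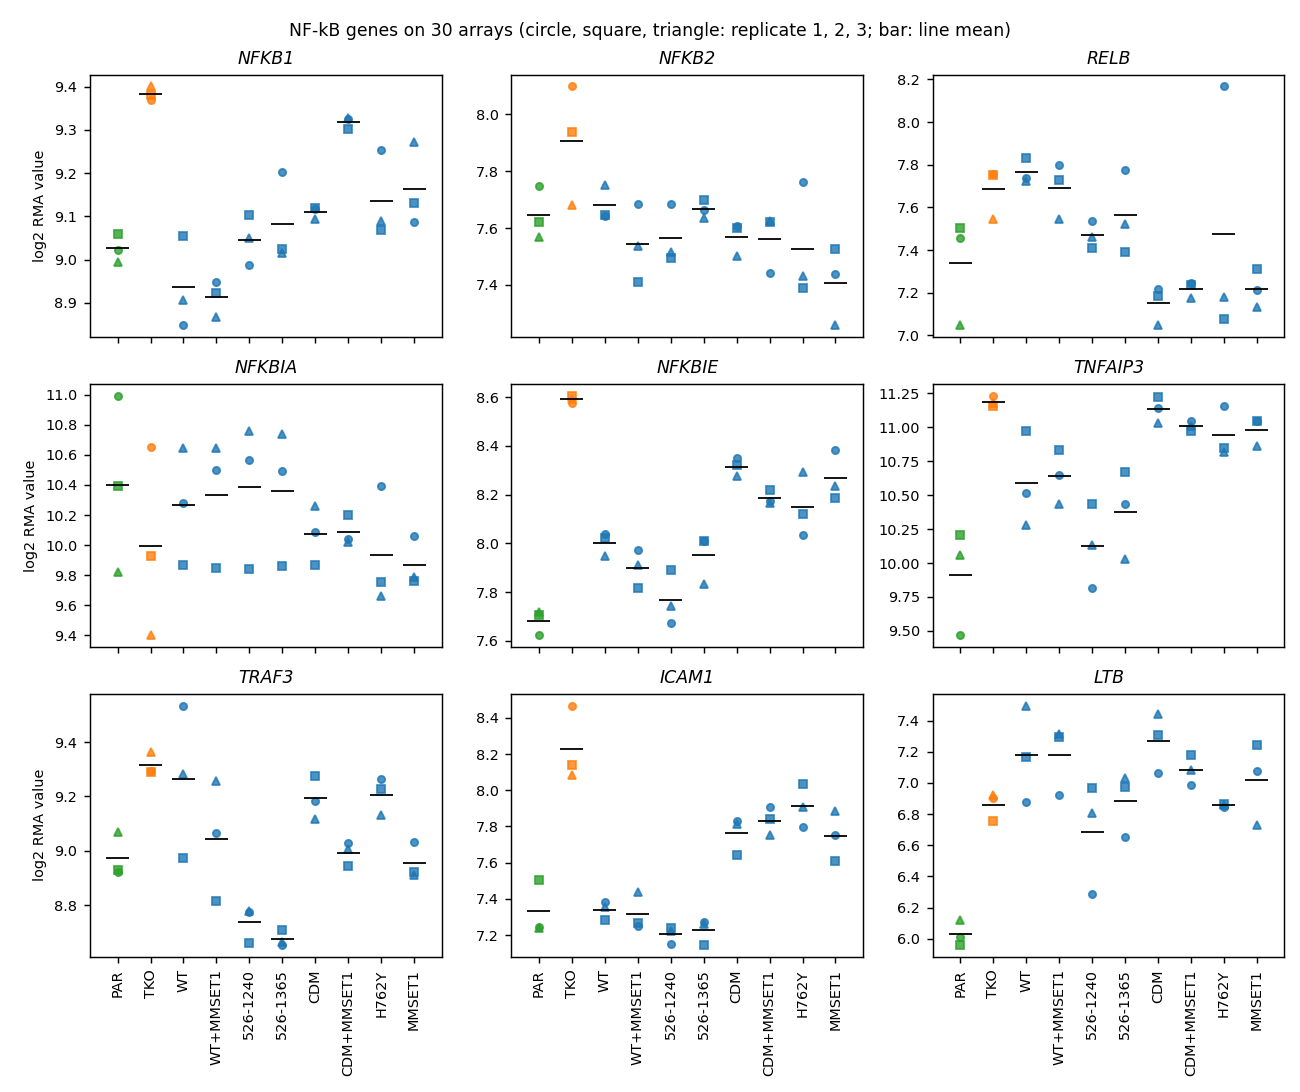
Log2 RMA value of each of the 9 genes on its brightest probe set, with points for the 3 arrays and a bar for the mean of each line. ICAM1 and NFKBIE have their highest points in TKO, NFKBIA scatters within lines, and LTB is lowest in PAR at 5.96 to 6.12.

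Levels below are those of the brightest probe set of each gene unless another is named. Between PAR and TKO 36.2% of all genes tested had arrays without overlap, between WT and CDM 43.4%, and between WT+MMSET1 and CDM+MMSET1 53%. Lack of overlap was thus common. NFKB1 encodes p105, the precursor of the p50 subunit. It read 9.37, 9.38 and 9.40 on the TKO arrays, 9.02, 9.06 and 8.996 on PAR, and 8.85, 9.05 and 8.91 on WT. The CDM arrays read 9.12, 9.12 and 9.09, and those of CDM+MMSET1 9.33, 9.30 and 9.33. The 3 TKO arrays were above all arrays of the other lines. TKO (9.38 ± 0.015) and CDM+MMSET1 (9.32 ± 0.014) were followed by MMSET1 (9.16 ± 0.097), and from there to the lowest line, WT+MMSET1 (8.91 ± 0.041), no neighbours in the order were free of overlap.

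NFKB2 encodes p100, which is both an inhibitor and the precursor of p52. TKO was the highest line at 7.91 ± 0.21 (8.10, 7.94 and 7.68) and MMSET1 the lowest at 7.41 ± 0.14 (7.44, 7.52 and 7.26). On this probe set, the brightest, line means of NFKB2 differed by at most 0.50 and each line overlapped with its neighbours in the order. On another, 209636_at, they spanned 0.81, and TKO lay 0.52 above the next line, H762Y, without overlap. RELB, the usual partner of p52, had another order. It read 7.74, 7.83 and 7.72 in WT, 7.76, 7.75 and 7.55 in TKO, and 7.80, 7.73 and 7.54 in WT+MMSET1. It read 7.22, 7.18 and 7.05 in CDM, 7.25, 7.24 and 7.18 in CDM+MMSET1, and 7.21, 7.31 and 7.13 in MMSET1. The first 3 of these lines lay above the last 3 without overlap. RELB in H762Y rested on 1 array, with 8.17 on replicate 1 against 7.08 and 7.18.

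Of the inhibitors, NFKBIE (IkB epsilon) separated the lines most cleanly. TKO read 8.58, 8.60 and 8.59, and PAR read 7.62, 7.71 and 7.72. WT read 8.04, 8.02 and 7.95, and CDM 8.35, 8.32 and 8.27. TKO was thus above all other arrays, CDM stood between TKO and WT, and PAR was the lowest line with some overlap with 526-1240 (7.67, 7.89 and 7.74). H762Y read 8.03 on replicate 1 and 8.12 and 8.29 on the others. The order was TKO (8.59 ± 0.013), CDM (8.31 ± 0.038), MMSET1 (8.27 ± 0.10), CDM+MMSET1 (8.19 ± 0.028), H762Y (8.15 ± 0.13), WT (8.00 ± 0.050), 526-1365 (7.95 ± 0.10), WT+MMSET1 (7.90 ± 0.078), 526-1240 (7.77 ± 0.11) and PAR (7.68 ± 0.052). Only the step from TKO to CDM was free of overlap between neighbours.

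For NFKBIA (IkB alpha) all neighbours in the order of line means overlapped. It read 10.99, 10.39 and 9.82 in PAR and 10.65, 9.93 and 9.40 in TKO. WT read 10.28, 9.87 and 10.64, and CDM 10.09, 9.87 and 10.26. The pooled SD of single arrays within lines was 0.417, larger than in 95.9% of the genes tested. The SD between line means was 0.201, but each mean holds 3 arrays, so the 2 values are unlike measures. At each replicate number PAR was above TKO, so part of the spread in these 2 lines went with the replicate number. The replicate 2 array was the lowest of its line in 6 of 10 lines and replicate 3 in the other 4, while replicate 1 was never the lowest. NFKBIA differences below carry this spread.

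TNFAIP3 (A20) is a ubiquitin-editing enzyme that shuts down signalling to IKK. It read 11.23, 11.16 and 11.18 in TKO, and 9.47, 10.21 and 10.06 in PAR. WT read 10.52, 10.98 and 10.28, and CDM 11.14, 11.23 and 11.04. The PAR arrays were all below the TKO arrays, and the WT arrays all below the CDM arrays, with WT replicate 2 close to them. From TKO (11.19 ± 0.038) the line means went down over CDM (11.13 ± 0.096), CDM+MMSET1 (11.01 ± 0.035), MMSET1 (10.98 ± 0.11), H762Y (10.94 ± 0.19), WT+MMSET1 (10.64 ± 0.20), WT (10.59 ± 0.35), 526-1365 (10.38 ± 0.32) and 526-1240 (10.13 ± 0.31) to PAR (9.91 ± 0.39). Each pair of neighbours overlapped. H762Y read 11.16 on replicate 1 and 10.85 and 10.82 on the others. On the brightest probe sets TNFAIP3 had the largest span of line means of the 9 genes, 1.28, beyond that of 89.8% of all genes tested (median span 0.54).

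TRAF3 is an adaptor that restrains the noncanonical route. It read 9.30, 9.29 and 9.36 in TKO and 8.92, 8.93 and 9.07 in PAR. The fragment lines were lowest, at 8.77, 8.66 and 8.78 for 526-1240 and 8.65, 8.71 and 8.66 for 526-1365. Both lay below every array of the other 8 lines. WT varied most, with 9.53, 8.97 and 9.28.

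ICAM1, an adhesion molecule of the cell surface and a classic NF-kB target, fell into 3 separate ranges on its brightest probe set, 202637_s_at. TKO read 8.47, 8.14 and 8.08. The lines with CDM (7.83, 7.64 and 7.82), CDM+MMSET1 (7.91, 7.84 and 7.75), H762Y (7.80, 8.03 and 7.91) and MMSET1 (7.75, 7.61 and 7.89) came next. PAR (7.25, 7.51 and 7.24), WT (7.38, 7.28 and 7.35), WT+MMSET1 (7.25, 7.26 and 7.44), 526-1240 (7.15, 7.24 and 7.22) and 526-1365 (7.27, 7.15 and 7.26) were lowest. No array of one range overlapped with another range. Between line means the steps were 0.32 from TKO (8.23 ± 0.21) to H762Y (7.91 ± 0.12) and 0.41 from MMSET1 (7.75 ± 0.14) to WT (7.34 ± 0.051), and within each range all neighbours overlapped. H762Y replicate 1, the array that stood apart, lay with the other H762Y arrays for ICAM1. The ranges did not hold on the other probe sets. On 202638_s_at, with a span of 1.496, H762Y stood above CDM+MMSET1 by 0.29 without overlap, and CDM and WT overlapped. On 215485_s_at TKO stood alone, PAR was the third highest line, and all neighbours below TKO overlapped.

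LTB encodes lymphotoxin beta, a surface ligand whose receptor activates the noncanonical route. PAR read 6.01, 5.96 and 6.12, and TKO 6.91, 6.75 and 6.92. WT read 6.88, 7.17 and 7.49, and CDM 7.06, 7.31 and 7.44. PAR was below every other array, by 0.65 between its mean (6.03 ± 0.081) and that of the next line, 526-1240 (6.69 ± 0.35). The remaining lines, up to CDM (7.27 ± 0.19), overlapped with their neighbours. LTB was thus the gene in which PAR stood alone and WT lay with TKO and CDM.

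TKO was the highest line for 6 of the 9 genes, and for 18.6% of all genes tested. PAR was the lowest for 3, and for 21.3% of all genes. Over the 10 line means NFKBIE and TNFAIP3 correlated at 0.930, ICAM1 and NFKBIE at 0.903, and ICAM1 and TNFAIP3 at 0.845. These describe 10 points that share 1 cell line and 1 normalization. NFKBIA had correlations of -0.870 with ICAM1, -0.863 with TNFAIP3 and -0.836 with NFKBIE. Its arrays spread widely within lines (pooled SD 0.417), and all neighbours in the order of its line means overlapped. The order of its lines is therefore not settled, and no relation is read from these values.

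The first comparison asked how the parental line differs from the NSD2 knockout. PAR was lower than TKO in 6 of the 9 genes and higher in 0, while over all genes tested 10.1% were lower and 12.2% higher (limma's moderated test over all 30 arrays, Benjamini-Hochberg adjusted p under 0.05). TNFAIP3 was 2.42-fold lower (log2 difference -1.28, SE 0.187, adjusted p = 1.13e-05). NFKBIE was 1.88-fold lower (-0.91, SE 0.0759, adjusted p = 1.48e-09). ICAM1 was 1.86-fold lower (-0.90, SE 0.0997, adjusted p = 1.8e-07). The genes lower in PAR than in TKO include feedback inhibitors and effectors alike. LTB was 1.78-fold lower (-0.83, SE 0.165, adjusted p = 0.000546), NFKB1 1.28-fold (-0.36, SE 0.0702, adjusted p = 0.000449) and TRAF3 1.27-fold (-0.34, SE 0.106, adjusted p = 0.0209). TRAF3 missed the threshold without PAR replicate 1, PAR replicate 2 or TKO replicate 3 (adjusted p = 0.0713, 0.0677 and 0.0709).

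RELB differed by -0.35 with no overlap of arrays, which held for 36.2% of all genes. It did not pass (adjusted p = 0.18), nor did NFKB2 (-0.26, adjusted p = 0.0861). NFKB2 passed without TKO replicate 3 (-0.37, adjusted p = 0.0189). NFKBIA was 0.41 higher in PAR, with a 95% interval from -0.25 to 1.06 (adjusted p = 0.401). The replicate numbers paired the arrays of these lines, and with the replicate number as a block in a fit of PAR and TKO alone the same NFKBIA difference passed (adjusted p = 0.0291). No other call among the 9 genes changed with the block in this comparison.

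**Figure D2:**
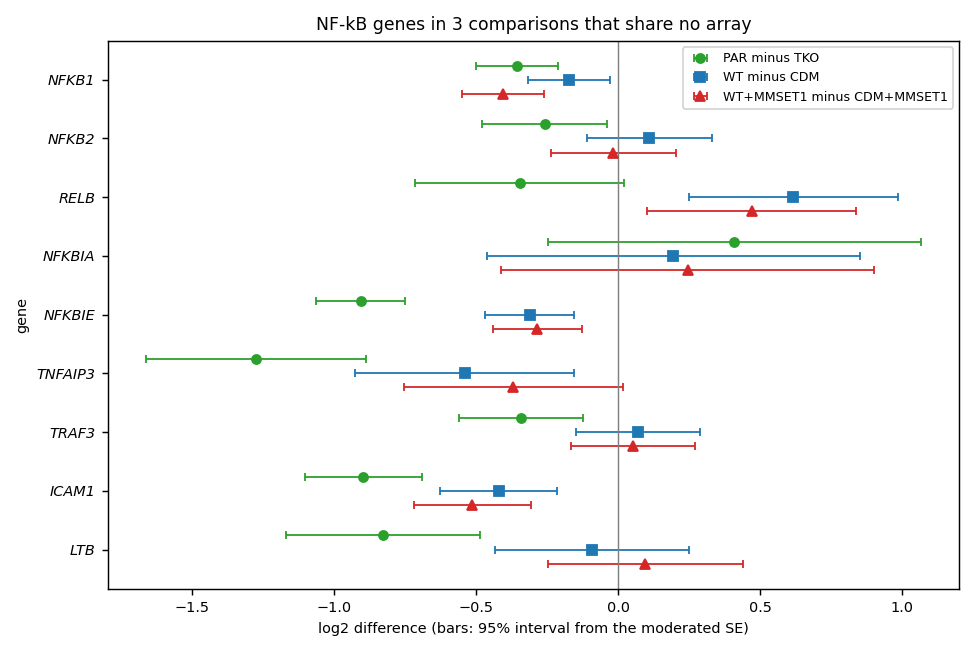
Log2 difference of each gene in PAR minus TKO, WT minus CDM and WT+MMSET1 minus CDM+MMSET1, with 95% intervals of the moderated SE. ICAM1 and NFKBIE lie below 0 in all 3, RELB is above 0 in both comparisons of WT with CDM, and the LTB interval lies wholly below 0 in PAR minus TKO (-0.83) but not in the other 2.

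The comparison of WT with CDM asks what the catalytic activity of the transgene changes, in lines that differ by this mutation as far as the labels say. WT was lower than CDM in 3 of the 9 genes and higher in 1, beside 11% and 12.4% of all genes. ICAM1 was lower by 0.42 on the log2 scale (difference -0.42, adjusted p = 0.00482), NFKBIE by 0.31 (-0.31, adjusted p = 0.00574) and TNFAIP3 by 0.54 (-0.54, adjusted p = 0.0394). The TNFAIP3 call was lost without any one of CDM replicate 1, 2 or 3 or WT replicate 1 or 3, with differences of -0.59 to -0.39 and adjusted p between 0.069 and 0.186. RELB went the other way and was higher in WT by 0.62 (SE 0.178, adjusted p = 0.0166), a call lost without CDM replicate 3 (0.56, adjusted p = 0.0682). LTB differed by -0.09, with an interval from -0.43 to 0.25, which does not reach the size of its PAR difference. NFKB1 (-0.17, adjusted p = 0.0744), NFKB2 (0.11), TRAF3 (0.07) and NFKBIA (0.19) did not pass. NFKB1 passed without WT replicate 2 (-0.23, adjusted p = 0.029).

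The same comparison with MMSET I beside the full-length protein, WT+MMSET1 with CDM+MMSET1, used other arrays. Arrays of equal number in WT and WT+MMSET1 had residuals correlated at 0.460 to 0.689, and all lines shared 1 estimate of spread per gene. The 2 comparisons are thus not wholly independent. With MMSET I, WT was again lower in 3 and higher in 1 of the 9 genes, beside 16% and 16.1% of all genes. ICAM1 was lower by 0.51 (-0.51, adjusted p = 0.000612), NFKB1 by 0.41 (-0.41, adjusted p = 0.000205) and NFKBIE by 0.29 (-0.29, adjusted p = 0.00695). RELB was higher by 0.47 (adjusted p = 0.0462), and this call was lost when any one of CDM+MMSET1 replicate 1, 2 or 3 or WT+MMSET1 replicate 1 or 2 was left out. TNFAIP3 differed by -0.37 without overlap of arrays, which held for 53% of all genes. It did not pass (interval -0.76 to 0.01, adjusted p = 0.133). LTB (0.10), NFKB2 (-0.02), TRAF3 (0.05) and NFKBIA (0.24) did not pass. The change of the WT to CDM difference with MMSET I was itself tested and passed for 0 of the 9 genes and 0 of all genes (0%), with 492 genes and 1 of the 9 at an unadjusted p under 0.05.

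ICAM1 and NFKBIE were the genes lower in all 3 of these comparisons, which share no array. Over all genes, 345 (2.63%) were lower in all 3 and 707 (5.38%) higher. The ICAM1 call in WT against CDM held on its brightest probe set alone and was lost on the mean of its probe sets (limma adjusted p = 0.0547). The NFKBIE call in WT+MMSET1 against CDM+MMSET1 was lost with the replicate block (limma adjusted p = 0.051). NFKB1 was lower in PAR and in WT+MMSET1, and RELB was higher in both comparisons of WT with CDM. In none of the 3 comparisons was NFKBIA called without the block.

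**Figure D3:**
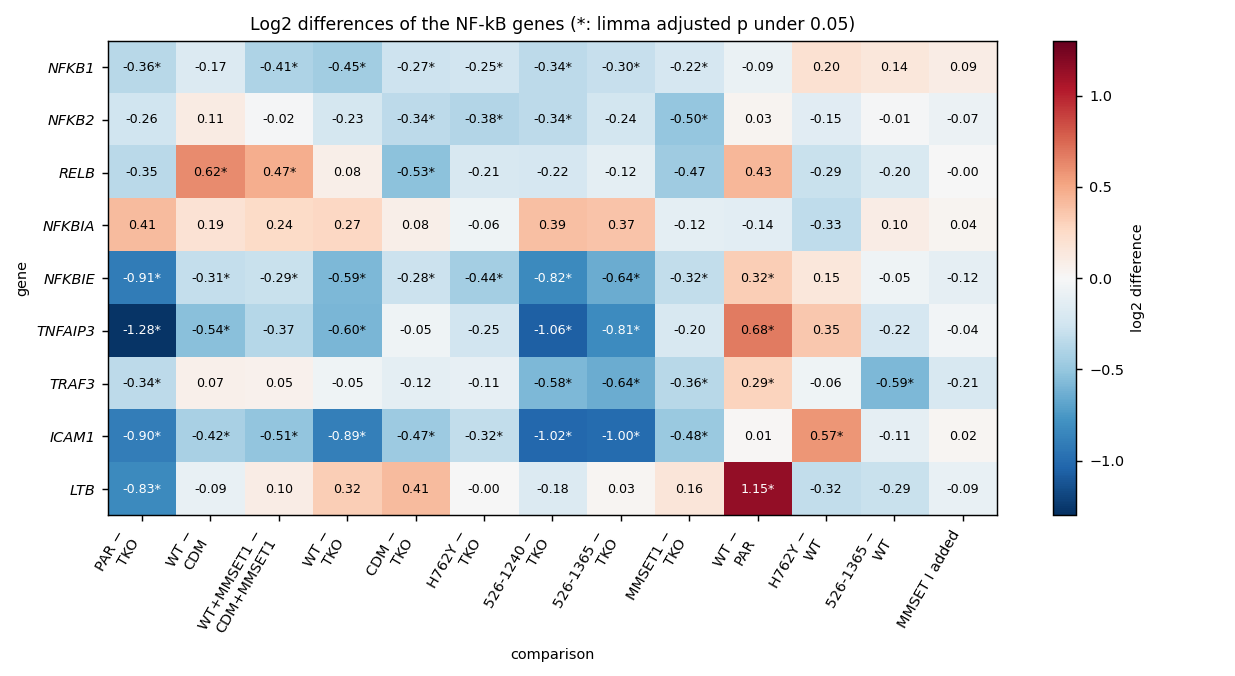
Log2 difference of each of the 9 genes in the comparisons of 2 lines and for MMSET I added to WT or CDM, by colour, with a star where the adjusted p was under 0.05. In all 7 comparisons with TKO the ICAM1 and NFKBIE cells have a star and are below 0, from -1.02 to -0.32 for ICAM1 and -0.91 to -0.28 for NFKBIE, but without H762Y replicate 1 the ICAM1 star of H762Y is lost (-0.26, adjusted p = 0.11). These 7 comparisons share the TKO arrays, and TKO was the highest line for 18.6% of all genes tested.

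Each transgene line was then set against TKO. These comparisons share the 3 TKO arrays, so a TKO array that reads high lowers all of them, and their values are given side by side. WT was lower in 4 of the 9 genes (19.3% of all genes lower, 21.5% higher): ICAM1 by 0.89 (-0.89, adjusted p = 3.57e-07), NFKBIE by 0.59 (-0.59, adjusted p = 2.46e-06), TNFAIP3 by 0.60 (-0.60, adjusted p = 0.0135) and NFKB1 by 0.45 (-0.45, adjusted p = 2.87e-05). The TNFAIP3 call was lost without WT replicate 3 (-0.44, adjusted p = 0.0911), while LTB passed as higher without WT replicate 1 (0.47, adjusted p = 0.0443) and NFKB2 as lower without TKO replicate 3 (-0.34, adjusted p = 0.0211). The 526-1240 fragment was lower in 6 (17.7% of all genes lower, 20.9% higher): TNFAIP3 by 1.06 (-1.06), ICAM1 by 1.02 (-1.02), NFKBIE by 0.82 (-0.82), TRAF3 by 0.58 (-0.58), NFKB1 and NFKB2 by 0.34 each (-0.34), with adjusted p between 1.25e-08 and 0.0138. Its NFKB2 call was lost without 526-1240 replicate 3 or TKO replicate 1 (adjusted p = 0.0508 and 0.0992). The 526-1365 fragment was lower in 5 (17.3% of all genes lower, 20.4% higher): ICAM1 (-1.001), TNFAIP3 (-0.81), NFKBIE (-0.64), TRAF3 (-0.64) and NFKB1 (-0.30), with adjusted p between 4.17e-08 and 0.00158, and NFKB2 passed without TKO replicate 3 (-0.35, adjusted p = 0.0173). The fragment lines thus had the lower RNA of the adaptor TRAF3 beside that of the inhibitors and of ICAM1, while TRAF3 in WT differed from TKO by -0.05 on 221571_at, the probe set all these TRAF3 values rest on. On 208315_x_at TRAF3 was lower in WT too (-0.42).

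In the lines with CDM or MMSET1 the TNFAIP3 difference was not called on its brightest probe set. CDM was lower than TKO in 5 of the 9 genes (7.18% of all genes lower, 9.99% higher): RELB (-0.53, adjusted p = 0.0397), ICAM1 (-0.47, adjusted p = 0.00203), NFKB2 (-0.34, adjusted p = 0.0305), NFKBIE (-0.28, adjusted p = 0.013) and NFKB1 (-0.27, adjusted p = 0.00815). RELB and NFKB2 missed the threshold without any one of CDM replicates 1, 2 and 3 or TKO replicates 1 and 2 (adjusted p from 0.0679 to 0.132 for RELB and 0.0568 to 0.195 for NFKB2), and NFKBIE without CDM replicate 3 (-0.26, adjusted p = 0.0573). TNFAIP3 in CDM differed from TKO by -0.05 (adjusted p = 0.89) on its brightest probe set. On 202643_s_at TKO lay 0.32 above CDM, the next line, without overlap of arrays, and MMSET1 was lower still. Arrays of CDM and TKO did not overlap in 43.2% of all genes tested. LTB was 0.41 higher in CDM (adjusted p = 0.0923) and passed in a fit of only these lines, with the replicate block that paired them (adjusted p = 0.0224) or without it (0.0276). MMSET1 was also lower in 5 (7.6% of all genes lower, 9.29% higher): NFKB2 (-0.50, adjusted p = 0.00198), ICAM1 (-0.48, adjusted p = 0.00157), TRAF3 (-0.36, adjusted p = 0.0197), NFKBIE (-0.32, adjusted p = 0.00444) and NFKB1 (-0.22, adjusted p = 0.0315). NFKB1 was lost without MMSET1 replicate 1 or 2 or any TKO array (adjusted p from 0.0709 to 0.141), and TRAF3 without MMSET1 replicate 2 or 3 or TKO replicate 3 (0.0634 to 0.0665). In a fit of only these lines NFKB1 was lost and RELB (-0.47, adjusted p = 0.0752) passed, both with the block, for which the arrays paired (adjusted p = 0.0837 and 0.0113), and without it (0.0971 and 0.0126).

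H762Y was lower than TKO in 4 genes (7.26% of all genes lower, 8.5% higher): NFKBIE (-0.44, adjusted p = 0.000369), NFKB2 (-0.38, adjusted p = 0.0167), ICAM1 (-0.32, adjusted p = 0.0328) and NFKB1 (-0.25, adjusted p = 0.0179). Without H762Y replicate 1, RELB was also lower (-0.56, adjusted p = 0.0025) and ICAM1 was not called (-0.26, adjusted p = 0.11), while the other 3 passed. ICAM1 was also lost without H762Y replicate 3 or TKO replicate 1 (adjusted p = 0.0714 and 0.229), NFKB1 without H762Y replicate 2 or 3 or TKO replicate 3 (0.0512 to 0.0763), and NFKB2 without H762Y replicate 2 or 3 or TKO replicate 1 or 2 (0.0567 to 0.119). Against WT, H762Y was higher in ICAM1 by 0.57 (adjusted p = 0.000308), 1 of the 9 genes beside 5.98% of all genes higher and 9.41% lower. Without replicate 1 that difference was 0.63 (adjusted p = 0.000117), and RELB (-0.64, adjusted p = 0.000248), NFKB2 (-0.27, adjusted p = 0.0491) and NFKBIE (0.20, adjusted p = 0.0497) passed as well. The count over all genes in H762Y against WT was 2021 with all arrays, 5147 without this array, 712 and 738 without H762Y replicate 2 or 3, and 1060 without WT replicate 1. The share of these calls that were higher ran from 23.0% without replicate 2 to 49.5% without replicate 1.

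WT was also compared with PAR. It was higher in 4 of the 9 genes (15.7% of all genes higher, 14.9% lower). LTB was 2.21-fold higher (1.15, SE 0.165, adjusted p = 1.63e-05). TNFAIP3 was higher by 0.68 (adjusted p = 0.00769), NFKBIE by 0.32 (adjusted p = 0.00268) and TRAF3 by 0.29 (adjusted p = 0.0405, with overlapping arrays). ICAM1 differed by 0.01, with an interval from -0.20 to 0.22. Of the 6 genes lower in PAR than in TKO, ICAM1 and NFKB1 were not called between WT and PAR. For ICAM1 this was read on its brightest probe set. On 215485_s_at PAR was the third highest line and stood above WT. WT lay between PAR and TKO for NFKBIE and TNFAIP3, and for LTB it was at or above the knockout value (0.32 against TKO, adjusted p = 0.128). NFKB1 was lower in WT than in PAR by 0.09 and not called, and TRAF3 in WT lay 0.05 below TKO on 221571_at. TNFAIP3 lost its call without WT replicate 2 or PAR replicate 1 (0.49 and 0.46, adjusted p = 0.0606 and 0.0577), and TRAF3 without PAR replicate 1 or 2 or WT replicate 1 or 3 (0.15 to 0.28, adjusted p from 0.0906 to 0.299).

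Between the longer fragment 526-1365 and WT, TRAF3 alone passed, lower in the fragment by 0.59 (-0.59, adjusted p = 0.0031), beside 0.67% of all genes lower and 0.746% higher. The numbers paired these arrays, and in a fit of only these lines the call was lost with the block (adjusted p = 0.0847) and without it (0.305). Adding MMSET I to WT or CDM changed 0 of the 9 genes and 1 of all genes (0.00761%), with 505 genes and 2 of the 9 at an unadjusted p under 0.05.

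Several genes had further probe sets, tested among 24552 probe sets. For TNFAIP3 the other one, 202643_s_at, was also lower in PAR than in TKO (-1.49, adjusted p = 1.12e-06) and in WT than in CDM (-0.70, adjusted p = 0.0113). All 3 ICAM1 probe sets were lower in PAR than in TKO, by 0.45 to 1.18, but only the brightest was called in WT against CDM (202638_s_at -0.32 and 215485_s_at -0.15, adjusted p = 0.316 and 0.395). NFKB2 gave unlike answers in PAR against TKO: 209636_at was called (-0.58, adjusted p = 0.00027) and the brighter 207535_s_at was not (-0.26). The TRAF3 probe set 208315_x_at was -0.32 in that comparison and did not pass (adjusted p = 0.0964), and it was lower in WT than in TKO (-0.42, adjusted p = 0.0161), where 221571_at was not. The third NFKB2 probe set (211524_at) and the other one of LTB (1559754_at) and of NFKBIA (231699_at) were dim in all 10 lines.

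The rest of the pathway was read on lists of 97 genes, of which 90 had a probe set and 67 were tested. PAR was higher than TKO in 6 and lower in 14 of the 67, beside 12.2% and 10.1% of all genes, with a median difference of -0.085 against -0.032 over all genes tested. WT was higher than CDM in 8 and lower in 12, beside 12.4% and 11% of all genes. WT+MMSET1 was higher than CDM+MMSET1 in 10 and lower in 11, beside 16.1% and 16%, so that both counts were close to the background. Among the other subunits and IkB proteins (6 tested), NFKBIB was lower in PAR than in TKO (-0.37, adjusted p = 0.0246) and NFKBIL1, an IkB-like gene, higher in WT than in CDM (0.50, adjusted p = 0.0183).

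The IKK complex and its upstream kinases (12 tested) had 5 lower and 0 higher in PAR against TKO, 4 lower and 0 higher in WT against CDM, and 4 lower and 0 higher in WT+MMSET1 against CDM+MMSET1. Over all genes 10.1%, 11% and 16% were lower and 12.2%, 12.4% and 16.1% higher. Other comparisons gave other counts, with 4 higher and 0 lower in WT against PAR, 4 higher and 1 lower in CDM against TKO, and 2 higher and 3 lower in WT against TKO. IKBKE, an IKK-related kinase, was -0.64 in PAR against TKO and -0.40 in WT against CDM (adjusted p = 0.00124 and 0.0401). MAP3K14, the kinase of the noncanonical route, was lower in all 3 comparisons that share no array (-0.38, -0.29 and -0.28). IKBKG, the regulatory subunit of IKK, was lower in all 3 as well (-0.47, -0.30 and -0.40), but it has a near-identical pseudogene copy that its probes may also read. MAP3K3 (-0.52) and CHUK (-0.43), the IKK alpha kinase, passed in PAR against TKO, and MAP3K7 (-0.63), the TAK1 kinase, in WT against CDM.

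Of adaptors and ubiquitin enzymes 19 were tested, with 1 higher and 4 lower in PAR against TKO (12.2% and 10.1% of all genes) and 2 higher and 4 lower in WT against CDM (12.4% and 11%). TRAF6, an adaptor of Toll-like and interleukin receptors, was lower in all 3 comparisons without shared arrays (-0.36, -0.62 and -0.60), as was TNIP2, a partner of TNFAIP3 (-0.28, -0.24 and -0.27). MALT1, a protease of antigen receptor signalling, was -0.85 in PAR against TKO (adjusted p = 5.99e-05). TRADD was lower in PAR (-0.28) and OTULIN, which removes linear ubiquitin chains, higher (0.34). In WT against CDM, RBCK1 (1.28) and CYLD (0.77), a deubiquitinase that restrains the pathway, were higher, and TRAF5 (-1.05) and MYD88 (-0.75) lower.

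Among 9 receptors tested, the TNF receptors went in opposite directions. TNFRSF1B was lower in all 3 comparisons (-2.14, -1.33 and -1.18, adjusted p = 0.000596, 0.03 and 0.0395). TNFRSF1A was higher in all 3 (1.16, 0.72 and 0.73, adjusted p = 9.45e-06, 0.00424 and 0.00242). TNFRSF17, the BCMA receptor of plasma cells, was higher too (0.54, 0.74 and 0.74). Neither of the 2 ligands tested was called in any of these 3.

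Of 15 other NF-kB targets tested, 2 were higher and 1 lower in PAR against TKO, close to the 12.2% and 10.1% of all genes, and 2 were higher and 3 lower in WT against CDM (12.4% and 11%). CFLAR, an inhibitor of caspase-8, was higher in all 3 comparisons (0.85, 1.15 and 1.13), as was TNFAIP2 (0.61, 0.49 and 0.82). TNFAIP8 was lower in PAR than in TKO (-0.83, adjusted p = 0.0146). CD83 (-0.93), the chemokine CCL5 (-0.70) and IER3 (-0.50) were lower in WT than in CDM. Of 5 genes used elsewhere in NF-kB signatures of myeloma, CD74 (-1.83, adjusted p = 4.73e-12), IL2RG (-1.69, adjusted p = 1.14e-09) and MALT1 were lower and WNT10A higher (1.65, adjusted p = 2.51e-06) in PAR against TKO. Over all genes 10.1% were lower and 12.2% higher there. Of these 5, WNT10A alone passed in WT against CDM (0.65, adjusted p = 0.0341), where 12.4% of all genes were higher and 11% lower.

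**Figure D4:**
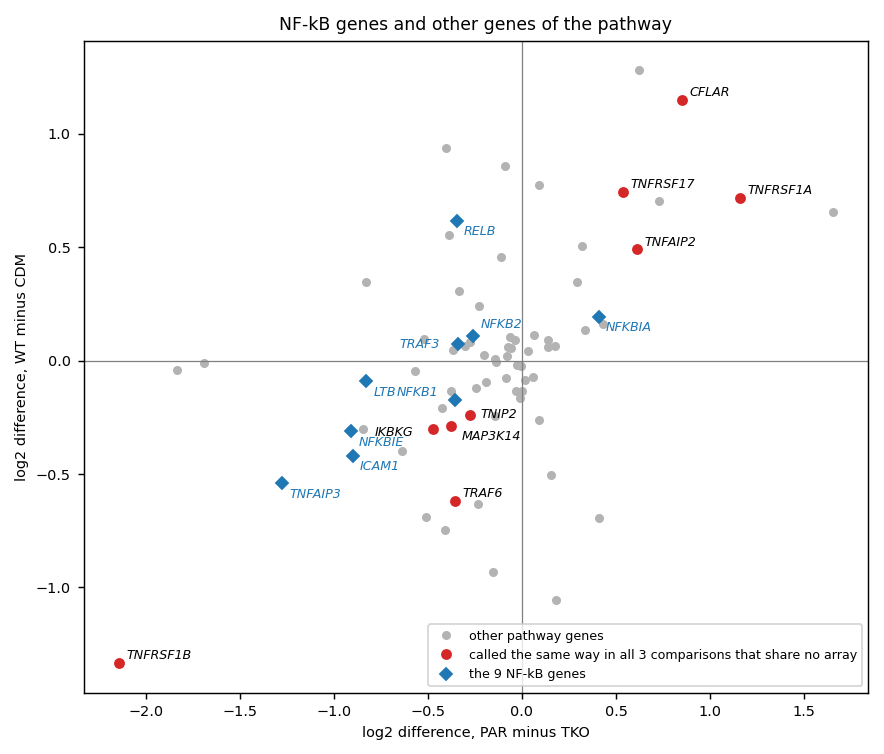
Log2 difference in PAR minus TKO (x axis) against WT minus CDM (y axis) for the 9 genes (blue diamonds) and the 67 other pathway genes (circles, red where called the same way in all 3 comparisons without shared arrays). TNFRSF1B lies at the lower left (-2.14 and -1.33), CFLAR at the upper right (0.85 and 1.15), and RELB at the upper left (-0.35 and 0.62).

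By the Pearson correlation of line means over the 10 lines, the genes most like ICAM1 were LENG1 (0.986), IKBKG (0.977) and DAD1 (0.974). Those most like TNFAIP3 were NTAN1 (0.984), BEST3 (0.980) and GMFG (0.978). For LTB they were PDLIM4 (0.977), SMTNL1 (0.969) and UEVLD (0.965). Each is the top of a search over all genes tested with 10 points, and is given as a description.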

How the data were processed

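The authors deposited 1 table of log2 values for 54613 probe sets on 30 HG-U133 Plus 2.0 arrays, computed by RMA per the labels' processing notes. No source used here gives the RMA version. No further normalization was applied, and 0 columns belonged to other series. Probe sets with 1 symbol in the platform annotation (41091; 1801 had several, 11721 were not listed) were used, 0 symbols were updated, and a gene was read on its probe set with the highest mean. Genes above 5.013, the median over the whole table, on 3 or more arrays were tested.

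The linear model, run in limma 3.58.1 (R 4.3.3), had 1 mean for each line over the 30 arrays and left 20 residual degrees of freedom, and contrasts were adjusted by Benjamini and Hochberg over all 13137 genes in each comparison, with a threshold of 0.05. Groups came from sample titles. Replicate numbers were taken to pair 2 lines where arrays of equal number had residuals correlated over 0.1 in every pair: PAR with TKO (0.115 to 0.445), CDM with TKO, MMSET1 with TKO and 526-1365 with WT among the comparisons of 2 lines. WT+MMSET1 with WT also did (0.460 to 0.689), but the 4 lines behind MMSET I added did not all pair. The code was tested on simulated data.

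The genes, the pathway lists and the comparisons were chosen with earlier results of these data known. Named beside the 10 genes were up to 4 of each list with the largest differences among those past the threshold in PAR against TKO and in WT against CDM, those past it in all 3 comparisons without shared arrays, and the 3 genes most like TNFAIP3, ICAM1 and LTB. Promoter sequences are from RefSeq. Alternatives were other filters, probe set rules, centrings, fits of only the lines compared, the replicate block and each array left out.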

Additional observations from a re-analysis of the deposited data

How the results depend on the processing

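Of the 126 differences of the 9 genes, 49 were called, 26 of these kept their call under all settings, 18 lost it under a setting that kept all arrays, 16 lost it with 1 array left out, and 0 of the called values changed sign. The number of the 9 genes called stayed within 1.5 times under 101 of the 112 settings that kept all arrays. For H762Y against WT, where 1 was called, it was 2 with the mean of all probe sets, 2 with arrays centred on their median, 2 with arrays centred on the genes tested (added after seeing the data), 0 with only the lines compared and 0 with the replicate block. For H762Y against TKO it was 0 with only the lines compared and 0 with the replicate block (4 otherwise), for WT against PAR 1 and 2 (4), and for 526-1365 against WT 0 and 0 (1). These fits hold fewer samples. With the replicate block the TRAF3 difference of -0.59 in 526-1365 against WT had an adjusted p of 0.0847 and NFKBIE in WT+MMSET1 against CDM+MMSET1 (-0.29) one of 0.051, while TNFAIP3 there (-0.37) passed (0.0362, and 0.0231 with only the lines compared and no block).

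Leaving out 1 array gave these ranges of genes called: PAR against TKO 5 to 6, WT against CDM 2 to 5, WT+MMSET1 against CDM+MMSET1 3 to 4, WT against TKO 3 to 5, CDM against TKO 2 to 5, H762Y against TKO 1 to 4, 526-1240 against TKO 5 to 6, 526-1365 against TKO 5 to 6, MMSET1 against TKO 3 to 4, WT against PAR 2 to 4, H762Y against WT 1 to 4, 526-1365 against WT 1 to 1, and 0 to 0 for MMSET I added and for its change of the WT to CDM difference. ICAM1 in WT against CDM was not called with the mean of its probe sets (-0.30, adjusted p = 0.0547), nor TNFAIP3 there without the filter (adjusted p = 0.0511). Centring on the genes tested moved the share of calls that were higher in PAR against TKO from 54.7% to 43.8%, and NFKB2 there then passed (-0.31, adjusted p = 0.0415). With the mean of all probe sets that share was 41.8%, 40.1% and 41.1% in CDM, H762Y and MMSET1 against TKO, so that lower calls outnumbered higher ones, the reverse of the shares on the brightest probe sets. The 3 arrays per line limit all of these.

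Over all genes tested, fits of only the lines compared changed the number called from 2256 to 3410 in CDM against TKO, from 2070 to 295 in H762Y against TKO, from 4021 to 1926 in WT against PAR, from 2021 to 303 in H762Y against WT, from 186 to 23 in 526-1365 against WT and from 1 to 18 for MMSET I added. The replicate block gave 4092 in CDM against TKO, 3333 in MMSET1 against TKO (2220 otherwise), 429 in H762Y against WT, 24 for MMSET I added, and 0 in H762Y against TKO, with 2588 at an unadjusted p under 0.05 by limma. Without 1 array the number fell to 1546 at the lowest in WT against CDM (3070, without WT replicate 1), to 2526 in WT+MMSET1 against CDM+MMSET1 (4219, without WT+MMSET1 replicate 1), and, without TKO replicate 1, to 1438, 1303 and 1434 in CDM, H762Y and MMSET1 against TKO.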
